A study of Mus musculus with 8 samples.

Results

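The genes described here are 9 genes of renal sodium reabsorption and its control by aldosterone: Scnn1a, Scnn1b, Scnn1g, Atp1b1, Nedd4l, Sgk1, Nr3c2, Hsd11b2 and Kcnj1. They were chosen by symbol from a table of 22322 genes measured by RNA sequencing, and all 9 passed the filter on low counts, which kept 13337 genes. The labels call the 8 samples primary fibroblasts of the mouse kidney. An adenovirus delivered GFP to 4 of them (Ad-GFP, labelled WT) and Cre recombinase to the other 4 (Ad-Cre, labelled suv39h1 knockdown). All 8 were stimulated for 48 hours with 5 ng/ml TGF-β, so there was no unstimulated group. The labels name no floxed allele, strain, sex or age, and the vectors differ in their cargo, so Cre and loss of Suv39h1 cannot be told apart here. Nothing says that replicates came from separate animals or cultures, so the p-values speak only to sample-to-sample spread, which may be technical.

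In the kidney, part of the sodium is taken back from the urine by the principal cells of the distal nephron. It enters through the epithelial sodium channel ENaC, built of α, β and γ subunits (Scnn1a, Scnn1b and Scnn1g), and leaves on the blood side through the sodium pump, whose β1 subunit is Atp1b1. Aldosterone binds the mineralocorticoid receptor (Nr3c2), and the enzyme encoded by Hsd11b2 inactivates glucocorticoids that would otherwise occupy that receptor. The kinase SGK1 is an early target of the receptor, and it restrains NEDD4-2 (Nedd4l), a ubiquitin ligase that removes ENaC from the membrane. Kcnj1 encodes ROMK, the channel through which potassium is secreted.

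The libraries held 15879244 to 23940043 counts, and the shallowest Ad-Cre library still exceeded the deepest Ad-GFP library. Suv39h1, on the X chromosome, averaged 28.92 ± 0.774 CPM (counts scaled to library size) under Ad-GFP and 23.06 ± 1.57 under Ad-Cre (SD, n = 4), or 79.58% of Ad-GFP (95% interval 73.51% to 86.16%). The 18 general epithelial markers summed to between 6406 and 6612 CPM in Ad-GFP and between 5951 and 6063 CPM in Ad-Cre, and 8 were higher and 7 lower. Counts of markers here are to be read against all genes tested, of which 40.3% passed the test, 19.8% higher and 20.5% lower. Krt8 and Cldn4 led the epithelial markers. The 12 fibroblast markers, led by Vim and Col1a1, summed to between 776 and 821 CPM in Ad-GFP and between 502 and 578 CPM in Ad-Cre. Of these, 10 were tested and 6 fell, while Lum and Dpt were under the filter. Against the fibroblast label, the epithelial markers therefore summed higher than the fibroblast markers in all 8 libraries. The lists differ in size and in the level of their genes, so these sums do not measure shares of RNA or of cells. The principal cell and connecting tubule markers summed to between 80.0 and 84.1 CPM in Ad-GFP and between 76.0 and 82.8 CPM in Ad-Cre, with Gata3 and Hsd17b11 the most abundant. Calb1 and Trpv5 of that list, named after their values were seen, fell, and 0 rose. Aqp2, the water channel that defines principal cells, had 0 counts in every library, which allows up to 0.125 to 0.189 CPM depending on the library (3 counts). Foxi1 of intercalated cells and Pvalb of the distal convoluted tubule were also at 0. In bulk RNA, fewer cells of a type and less RNA per cell cannot be told apart. Of the other cell types, intercalated cell markers summed to between 84.8 and 93.7 CPM under Ad-GFP and between 48.2 and 49.4 under Ad-Cre, with 1 of 3 tested higher and 1 lower. Their most abundant marker, Car2, fell to 45.04% of Ad-GFP. Endothelial markers fell in 7 of 8 cases (121 to 129 CPM in sum under Ad-GFP, 61.3 to 69.0 under Ad-Cre). Proximal tubule markers rose in 4 of 5 tested (114 to 129 and 162 to 186 CPM). Of the 10 listed for the proximal tubule, Slc34a1, Slc5a2, Slc22a6, Slc27a2 and Miox were under the filter. The part of these marker shifts in the results that follow was not tested.

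Compared per length, the 9 genes spanned more than 2 orders of magnitude (FPKM, fragments scaled to transcript length and library size, as deposited). Atp1b1 stood highest in every library, from 126.95 to 148.55 FPKM, and Nedd4l was next, from 30.48 to 40.99 FPKM. Sgk1 and Scnn1a followed and changed places between the groups. Sgk1 lay at 21.73 to 25.5 FPKM in Ad-GFP, above Scnn1a at 19.4 to 20.71, whereas in Ad-Cre it lay at 20.08 to 21.67 FPKM, below Scnn1a at 23.85 to 25.25. Scnn1b and Scnn1g overlapped with each other in both groups. Hsd11b2 lay below them in Ad-GFP, at 2.84 to 3.1 FPKM, and overlapped with Scnn1g in Ad-Cre, at 3.26 to 4.08 FPKM. The lowest pair was Kcnj1, at 1.1 to 1.37 FPKM in Ad-GFP and 0.62 to 1.06 FPKM in Ad-Cre, and Nr3c2, at 0.6 to 0.83 and 0.41 to 0.72 FPKM. Their ranges did not overlap in Ad-GFP and did in Ad-Cre. This order rests on the lengths behind the deposited FPKM. The length implied by count and FPKM was 2091 to 2236 bases for Sgk1, 3294 to 3450 for Scnn1a and 2997 to 3317 for Nedd4l. Their annotated exons cover 4903, 4132 and 17659 bases, so other lengths could give another order. In CPM, which leaves length out, Scnn1a lay above Sgk1 in both groups (means 67.18 and 50.83 under Ad-GFP, 84.1 and 45.69 under Ad-Cre).

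**Figure D1:**
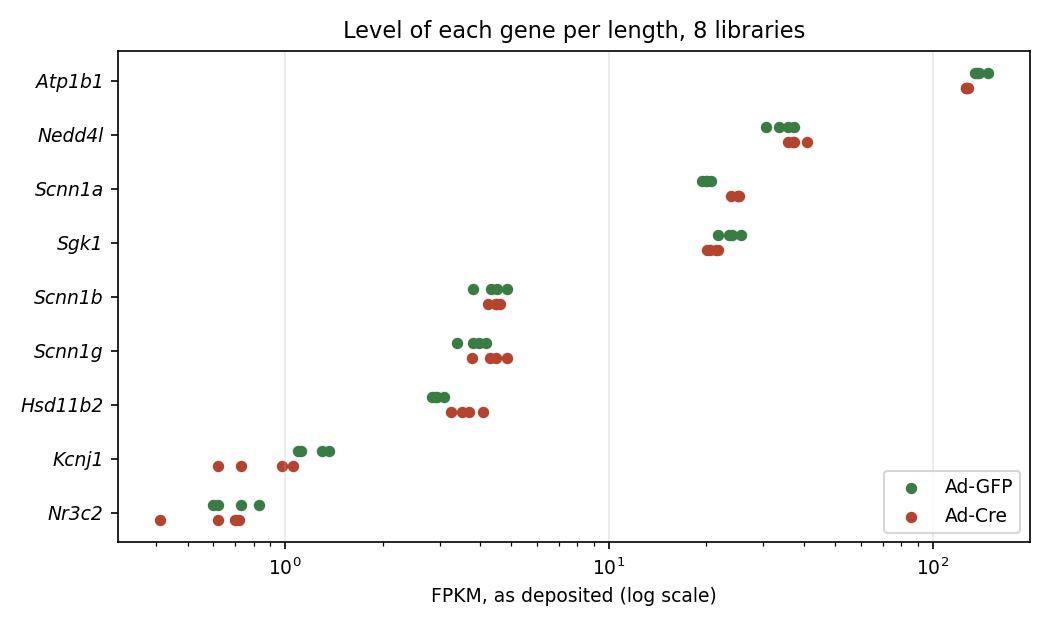
Deposited FPKM of each gene (horizontal axis, log scale) in the 4 Ad-GFP and 4 Ad-Cre libraries, 1 point per library. Atp1b1 lies above 126 in every library, Nr3c2 and Kcnj1 lie lowest, and Scnn1a moves from below Sgk1 in Ad-GFP to above it in Ad-Cre.

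Of the 9 genes, 3 rose in Ad-Cre (Scnn1a, Nedd4l and Hsd11b2), 3 fell (Atp1b1, Sgk1 and Kcnj1) and 3 did not pass the test (Scnn1b, Scnn1g and Nr3c2). The test was edgeR's quasi-likelihood test, two-sided, with p-values adjusted over all 13337 genes and a threshold of 0.05. Across all genes tested, 40.3% were called, 19.8% higher and 20.5% lower, so 6 of 9 called is a count to be read against a large background. The median log2 fold change of the 9 was 0.05, and that of all genes tested was 0.004. The CPM of the groups did not overlap for 4 of the 9 genes, against 35.4% of all genes tested. All changes called among the 9 were under 1.5-fold.

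**Figure D2:**
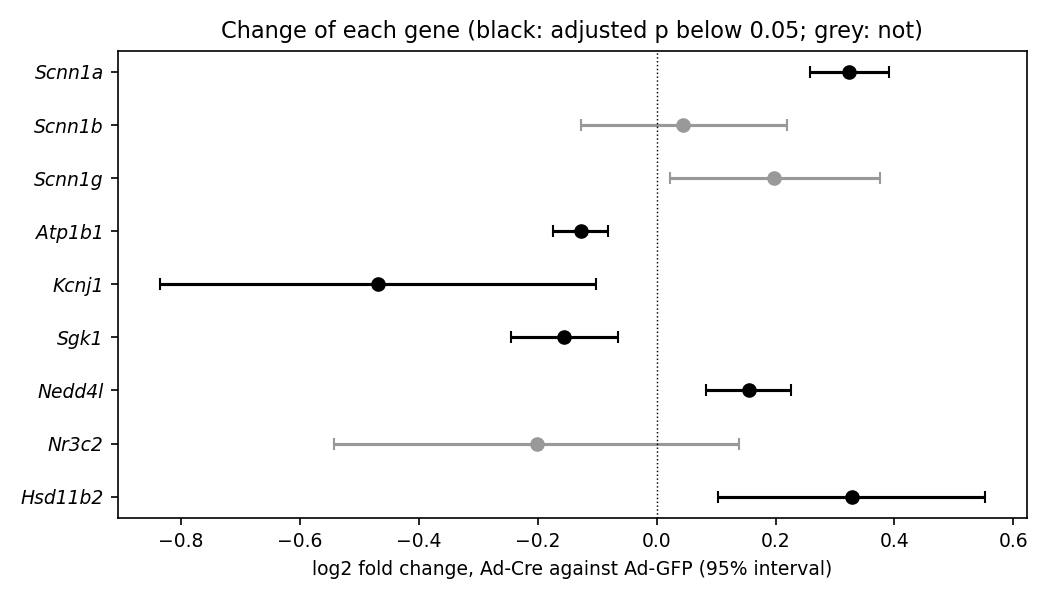
Log2 fold change of each gene in Ad-Cre against Ad-GFP with its 95% interval from edgeR's fit (4 libraries per group). Black points passed an adjusted p of 0.05 and grey points did not. Scnn1a has a narrow interval above 0, from 0.26 to 0.39, while the interval of Kcnj1 runs from -0.84 to -0.10.

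Of the ENaC subunits, only the α subunit gene passed the test. Scnn1a (ENSMUSG00000030340, chromosome 6, 125320659 to 125344943, plus strand, GRCm38) carries the subunit without which the channel does not reach the membrane in quantity. It measured 67.2, 66.15, 66.96 and 68.4 CPM across Ad-GFP replicates 1 to 4, and 85.34, 84.19, 83.92 and 82.96 CPM across Ad-Cre replicates 1 to 4. All Ad-Cre libraries lay above all Ad-GFP libraries, and the spread within each group was under 1.0 CPM (SD of 0.933 and 0.977). Scnn1a was at 125.2% of Ad-GFP, or 0.32 ± 0.0319 higher on the log2 scale (SE over 4 libraries each; edgeR adjusted p = 7.411e-09).

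The β and γ subunit genes lie close together on chromosome 7 and on the same strand, Scnn1g (ENSMUSG00000000216) at 121734479 to 121768475 and Scnn1b (ENSMUSG00000030873) at 121865038 to 121918514, with 96562 bases between them. The 250 bases before the start of each, from RefSeq on GRCm38.p6, are shown because these neighbours form the part of the channel that did not pass the test.
Scnn1g (chr7:121734229-121734478, plus strand): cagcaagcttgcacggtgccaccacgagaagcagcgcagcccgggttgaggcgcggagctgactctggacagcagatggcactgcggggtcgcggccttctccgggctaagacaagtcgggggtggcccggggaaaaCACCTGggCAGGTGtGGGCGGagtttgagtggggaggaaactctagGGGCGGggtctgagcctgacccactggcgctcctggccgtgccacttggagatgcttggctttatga
Scnn1b (chr7:121864788-121865037, plus strand): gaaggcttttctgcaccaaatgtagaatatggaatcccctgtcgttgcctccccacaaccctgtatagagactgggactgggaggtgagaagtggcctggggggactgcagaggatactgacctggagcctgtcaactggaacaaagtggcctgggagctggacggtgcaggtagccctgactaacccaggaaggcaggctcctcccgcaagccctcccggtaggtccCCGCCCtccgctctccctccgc
Capitals mark matches, on either strand, to the GC box GGGCGG and to CACCTG, the E-box that ZEB and SNAIL repressors can bind. The search also covered AGAACA, the 6-base site of steroid receptors, and CAGACA, a SMAD site, with no match in either window. Of 32851 such windows of 250 bases, 32.7% hold GGGCGG and 17.2% hold CACCTG on either strand. The window of Scnn1g is 65.2% G or C and that of Scnn1b 60.8%, against a median of 52.4% over all windows. Matches are letters only, and the choice of motifs was made after the expression values were known.

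Scnn1b measured 9.4, 10.62, 11.11 and 11.94 CPM across Ad-GFP replicates 1 to 4, and 11.53, 11.14, 11.2 and 10.56 CPM across Ad-Cre replicates 1 to 4. The Ad-Cre libraries fell inside the Ad-GFP range. Its log2 fold change was 0.05 ± 0.0842 (SE over 4 libraries each; edgeR adjusted p = 0.7005), and the 95% interval of its level ran from 91.51% to 116.4% of Ad-GFP. That interval lies below the 119.6% to 131.0% of Scnn1a.

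Scnn1g measured 10.09, 12.33, 11.29 and 11.82 CPM across Ad-GFP replicates 1 to 4, and 14.55, 13.46, 12.98 and 11.42 CPM across Ad-Cre replicates 1 to 4. Of the Ad-Cre libraries 3 lay above all Ad-GFP libraries and replicate 4 lay among them. The log2 fold change was 0.20 ± 0.0856 (SE over 4 libraries each; edgeR adjusted p = 0.0671), 114.7% of Ad-GFP. It passed the test without Ad-GFP replicate 2 (adjusted p = 0.04745) or without Ad-Cre replicate 4 (adjusted p = 0.02144), and its adjusted p ranged from 0.02144 to 0.23 over 18 other settings.

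Within each library the β and γ subunit transcripts were scarce beside the α transcript. The FPKM ratio of Scnn1b to Scnn1a was 0.189, 0.223, 0.226 and 0.234 across Ad-GFP replicates 1 to 4, and 0.185, 0.179, 0.177 and 0.177 across Ad-Cre replicates 1 to 4. All Ad-Cre ratios lay below all Ad-GFP ratios, although Ad-GFP replicate 1 lay close to them. The difference was -0.28 on the log2 scale (exact permutation test, two-sided, p = 0.0286, the smallest that 4 against 4 samples allow; adjusted p = 0.0571 over the 8 ratios tested). The ratio of Scnn1g to Scnn1a was 0.191 ± 0.0189 in Ad-GFP and 0.175 ± 0.0145 in Ad-Cre (SD, n = 4; exact permutation p = 0.286, adjusted p = 0.286). The ratio of Scnn1g to Scnn1b was 0.879 ± 0.063 and 0.975 ± 0.0634 (SD, n = 4; exact permutation p = 0.0857, adjusted p = 0.114). No ratio passed 0.05 after adjustment by the exact permutation test on FPKM, and 4 of the 8 were at an unadjusted p of 0.0286. When the ratios were taken from CPM, 5 of 8 passed the same test (adjusted p = 0.0457), Nedd4l to Nedd4 the fifth of them. The other 4 were at the smallest p allowed on both scales, so their passing turned on Nedd4l to Nedd4 reaching it too.

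**Figure D3:**
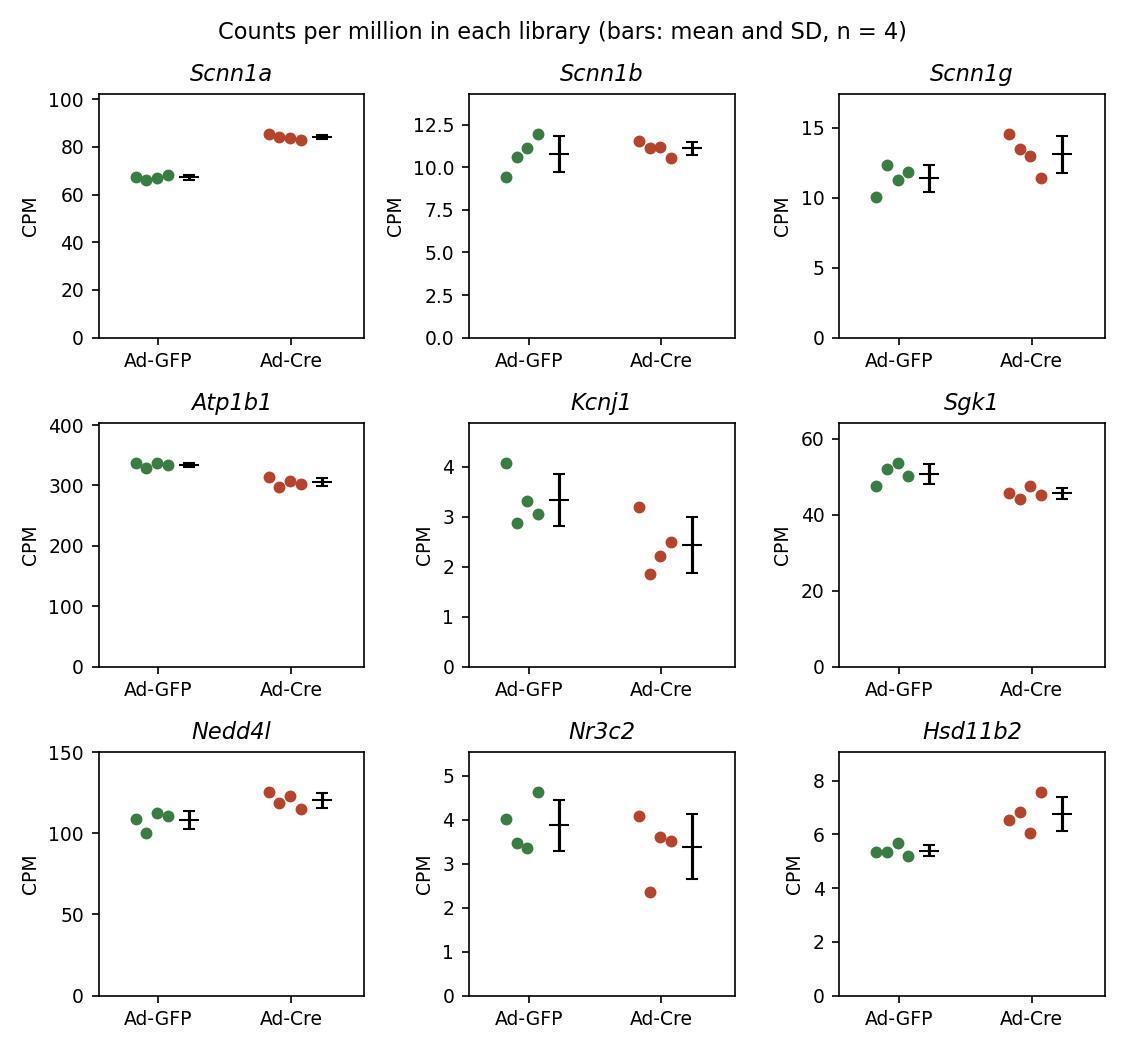
CPM of each gene (vertical axes, each starting at 0) in the 4 Ad-GFP and 4 Ad-Cre libraries, 1 point per library, with the mean and SD of each group. The groups separate for Scnn1a, Atp1b1, Nedd4l and Hsd11b2 and overlap for the other genes.

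On the exit side of sodium, the pump subunit gene Atp1b1 fell. Atp1b1 (ENSMUSG00000026576, chromosome 1, 164437109 to 164458355, minus strand) encodes the β1 subunit that carries the pump's catalytic subunit to the membrane. It measured 336.5, 329.0, 336.9 and 333.1 CPM across Ad-GFP replicates 1 to 4, and 314.8, 298.0, 306.9 and 303.2 CPM across Ad-Cre replicates 1 to 4. Every Ad-Cre library lay below every Ad-GFP library, by a small margin. Atp1b1 fell to 91.53% of Ad-GFP (95% interval 88.61% to 94.54%; log2 fold change -0.13 ± 0.0227, SE over 4 libraries each; edgeR adjusted p = 6.29e-05). Its exons overlap those of Nme7 on the other strand over 575 bases. The counting step's strand setting was not given in the sources used here. Nme7 averaged 23.0 CPM under Ad-GFP and 24.7 under Ad-Cre (edgeR adjusted p = 0.1625).

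Atp1b3, encoding the β3 subunit, stood slightly higher in Ad-Cre. It averaged 113.9 ± 3.15 CPM under Ad-GFP and 120.3 ± 3.3 under Ad-Cre (SD, n = 4), or 105.7% (edgeR adjusted p = 0.03448). The groups overlapped, and the call was lost under 9 of 18 other settings, upper-quartile scaling among them (adjusted p from 0.009853 to 0.1649). The FPKM ratio of Atp1b1 to Atp1b3 was 2.6, 2.431, 2.297 and 2.417 across Ad-GFP replicates 1 to 4, and 2.156, 2.169, 2.165 and 2.039 across Ad-Cre replicates 1 to 4. Every Ad-Cre library had a lower ratio than any Ad-GFP library. The difference was -0.19 on the log2 scale (exact permutation p = 0.0286, two-sided; adjusted p = 0.0571 over the 8 ratios).

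**Figure D4:**
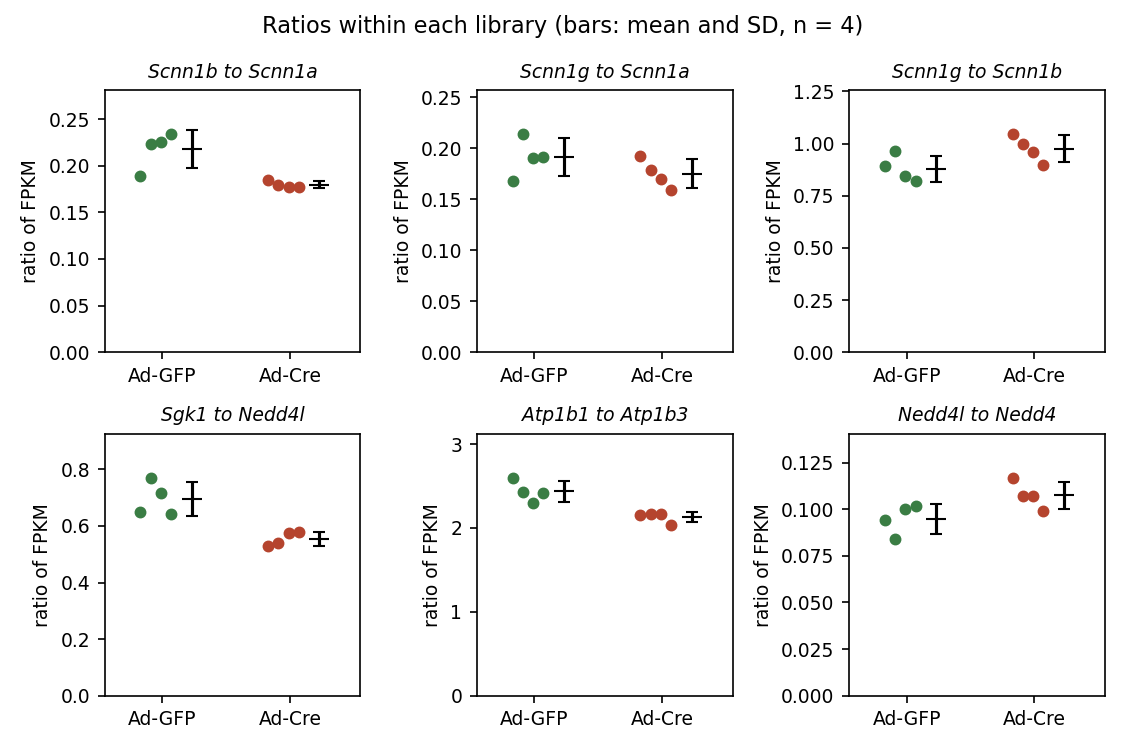
Ratios of FPKM between pairs of genes within each library (vertical axes, each starting at 0), 1 point per library, with the mean and SD of each group. The ratios of Scnn1b to Scnn1a, Sgk1 to Nedd4l and Atp1b1 to Atp1b3 are lower in all 4 Ad-Cre libraries, and the ratios of Scnn1g and of Nedd4l to Nedd4 overlap.

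The secretory potassium channel gene was scarce and its call was fragile. Kcnj1 (ENSMUSG00000041248, chromosome 9, 32372493 to 32399197, plus strand) had 44 to 71 counts per library. It measured 4.07, 2.88, 3.31 and 3.06 CPM across Ad-GFP replicates 1 to 4, and 3.19, 1.85, 2.21 and 2.49 CPM across Ad-Cre replicates 1 to 4. The groups overlapped, since Ad-Cre replicate 1 lay above 2 Ad-GFP libraries. Kcnj1 fell to 72.23% of Ad-GFP (log2 fold change -0.47 ± 0.178, SE over 4 libraries each; edgeR adjusted p = 0.03795), with a 95% interval from 56.0% to 93.17%. The call was lost under 8 of 17 other settings, over which the adjusted p ran from 0.01102 to 0.155. These include leaving out Ad-GFP replicate 1 (log2 fold change -0.36, adjusted p = 0.155), Ad-GFP replicate 3 (0.06734), Ad-Cre replicate 2 (0.1358), Ad-Cre replicate 3 (0.08976) or Ad-Cre replicate 4 (0.05912), and thinning all libraries to 1 depth (0.07504).

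The kinase gene Sgk1 fell while Nedd4l, the gene of its target, rose. Sgk1 (ENSMUSG00000019970, chromosome 10, 21882184 to 21999903, plus strand) measured 47.48, 52.1, 53.61 and 50.15 CPM across Ad-GFP replicates 1 to 4, and 45.66, 44.24, 47.73 and 45.13 CPM across Ad-Cre replicates 1 to 4. The groups touched, with Ad-Cre replicate 3 just above Ad-GFP replicate 1. Sgk1 fell to 89.82% of Ad-GFP (log2 fold change -0.15 ± 0.0438, SE over 4 libraries each; edgeR adjusted p = 0.006325), and it passed the test under all 18 other settings run.

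Sgk1 has 6 start windows in the RefSeq table, and 1 of them is shown because it holds the letters that steroid receptors are known to bind. It covers the 250 bases before that start.
Sgk1 (chr10:21993640-21993889, plus strand, GRCm38.p6): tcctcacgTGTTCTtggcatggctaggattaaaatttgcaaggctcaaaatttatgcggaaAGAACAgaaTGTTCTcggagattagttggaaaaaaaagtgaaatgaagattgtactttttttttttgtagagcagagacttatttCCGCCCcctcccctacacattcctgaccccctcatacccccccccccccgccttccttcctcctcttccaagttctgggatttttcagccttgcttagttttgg
Capitals mark AGAACA and GGGCGG on either strand. The full palindrome of steroid response elements, AGAACA followed after 3 bases of any kind by TGTTCT, begins at position -189 from that start and contains matches to the 6-base site. It was found in 3 of 32851 windows (0.00913%), those of Sgk1, Acnat2 and Gm35041, and the 6-base site AGAACA alone in 16.1%. Of the 9 genes 6 matched the table by symbol, with 11 windows in all, and Sgk1 had the only window among these 11 with the full palindrome. Scnn1a, Nedd4l and Hsd11b2 had no entry. The counts are totals per gene, so the start used in these cells was not determined.

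Nedd4l (ENSMUSG00000024589, chromosome 18, 64887705 to 65217828, plus strand) measured 109.0, 100.3, 112.4 and 110.8 CPM across Ad-GFP replicates 1 to 4, and 125.3, 118.6, 122.8 and 114.9 CPM across Ad-Cre replicates 1 to 4. Every Ad-Cre library lay above every Ad-GFP library. Nedd4l rose to 111.3% of Ad-GFP (log2 fold change 0.15 ± 0.0347, SE over 4 libraries each; edgeR adjusted p = 0.0008663). The call held in 16 of 18 other settings and ended on the FPKM scale, where the groups overlapped (limma on log2(FPKM + 1), adjusted p = 0.1071; range over the 18 settings 4.474e-05 to 0.1076). Its exons overlap those of A330084C13Rik on the other strand over 277 bases. The gene length implied by its count and FPKM had a coefficient of variation of 3.57% across the libraries, against 0.0783% for Scnn1b. The ligase's close relative Nedd4 averaged 1866 CPM under Ad-GFP and 1842 under Ad-Cre (edgeR adjusted p = 0.4032). The FPKM ratio of Nedd4l to Nedd4 was 0.0954 ± 0.00806 in Ad-GFP and 0.107 ± 0.00745 in Ad-Cre (SD, n = 4; exact permutation p = 0.0857, adjusted p = 0.114).

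The FPKM ratio of Sgk1 to Nedd4l was 0.648, 0.771, 0.716 and 0.643 across Ad-GFP replicates 1 to 4, and 0.529, 0.54, 0.575 and 0.577 across Ad-Cre replicates 1 to 4. The groups did not overlap. The difference was -0.32 on the log2 scale (exact permutation p = 0.0286, two-sided; adjusted p = 0.0571 over the 8 ratios).

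The receptor gene was scarce and did not pass the test, and the gene of the enzyme that guards it rose. Nr3c2 (ENSMUSG00000031618, chromosome 8, 76899442 to 77245012, plus strand) had 56 to 78 counts per library, and its exons overlap those of Gm10649 on the other strand over 247 bases. It measured 4.01, 3.48, 3.37 and 4.63 CPM across Ad-GFP replicates 1 to 4, and 4.08, 2.35, 3.6 and 3.53 CPM across Ad-Cre replicates 1 to 4, with overlapping groups. Its log2 fold change was -0.20 ± 0.165 (SE over 4 libraries each; edgeR adjusted p = 0.351), and the 95% interval of its level ran from 68.66% to 110.1% of Ad-GFP. The log2 fold change was -0.05 without Ad-Cre replicate 2 and -0.11 without Ad-GFP replicate 4. The glucocorticoid receptor gene Nr3c1, whose protein recognises the same DNA element, averaged 62.22 ± 4.18 CPM under Ad-GFP and 66.71 ± 1.62 under Ad-Cre (SD, n = 4; edgeR adjusted p = 0.06154). Per length Nr3c2 stood at 0.0625 ± 0.00894 of Nr3c1 in Ad-GFP and 0.0505 ± 0.0123 in Ad-Cre (SD, n = 4; exact permutation p = 0.171, adjusted p = 0.196).

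Hsd11b2 (ENSMUSG00000031891, chromosome 8, 105518755 to 105523988, plus strand) measured 5.33, 5.36, 5.67 and 5.19 CPM across Ad-GFP replicates 1 to 4, and 6.55, 6.85, 6.06 and 7.57 CPM across Ad-Cre replicates 1 to 4. Every Ad-Cre library lay above every Ad-GFP library. It rose to 125.5% of Ad-GFP (95% interval 107.4% to 146.7%; log2 fold change 0.33 ± 0.109, SE over 4 libraries each; edgeR adjusted p = 0.0183). The call ended without Ad-Cre replicate 4 (log2 fold change 0.27, adjusted p = 0.07747) and with DESeq2 (adjusted p = 0.06353), over a range of 0.01227 to 0.07747. Hsd11b1, the enzyme of the reverse reaction, had 0 to 38 counts and was under the filter, so its planned ratio was not tested.

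In the authors' deposited table, 4 of the 9 genes had an FDR below 0.05, against 18.7% of all its 22322 genes. That share also counts genes under the filter on low counts, which all 9 passed, so it is not a like background for them. In the authors' deposited table Scnn1a had a log2 fold change of 0.31, Atp1b1 of -0.13, Nedd4l of 0.14 and Sgk1 of -0.18. In the authors' deposited table Hsd11b2 (FDR 0.07669) and Kcnj1 (FDR 0.1141) did not reach that threshold.

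The members were also set against the epithelial transcripts of the same libraries. Divided by the summed CPM of the 18 epithelial markers, the difference between groups was 0.44 on the log2 scale for Scnn1a, 0.44 for Hsd11b2, 0.32 for Scnn1g and 0.27 for Nedd4l. It was -0.35 for Kcnj1. For Atp1b1 it was -0.01 and for Sgk1 -0.04, and against Krt8, Krt18, Cdh1 and Epcam alone it turned to 0.08 and 0.06. Within a library every gene is divided by the same sum. The division therefore moved all genes by nearly the same amount, and the larger values are not larger rises. That sum was led by Krt8, which fell from 1504 to 1168 CPM. The markers themselves moved both ways, and the median of their log2 fold changes was 0.0. Krt8 was at 77.63%, Krt18 at 83.56% and Krt19 at 68.47% of Ad-GFP, whereas Epcam was at 118.0%, Cdh16 at 122.6% and Pax2 at 127.8%. Apart from Krt8, these markers were chosen after their values were seen.

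The other genes of the pathway were read from 7 lists, given as counts beside the background of 19.8% higher and 20.5% lower. Of their 109 genes 90 were tested, and 27 rose and 16 fell. Their median log2 fold change was 0.03. With upper-quartile scaling, 21 rose and 19 fell, against 16.2% higher and 23.2% lower among all genes tested under that scaling. Of 10 ENaC-activating proteases and their inhibitors, all tested, 5 rose and 2 fell. The membrane protease gene St14 (matriptase) rose from 334.3 to 402.7 CPM, 120.4% of Ad-GFP, and Plau (urokinase) from 829.9 to 1003 CPM, 120.9%. Tmprss2 (128.2%), Prss8 (prostasin, which cleaves the γ subunit; 112.2%) and the inhibitor gene Spint1 (108.2%) also rose, and were named after their values were seen. Serpine2, a protease inhibitor gene, fell to 61.61%, and Tmprss4, named after its value was seen and at 1.109 and 0.5062 CPM, to 45.21%. Ctsb was at 101.5% (adjusted p = 0.4974 by edgeR) and furin, also named after its value was seen, at 101.6% (0.5051).

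**Figure D5:**
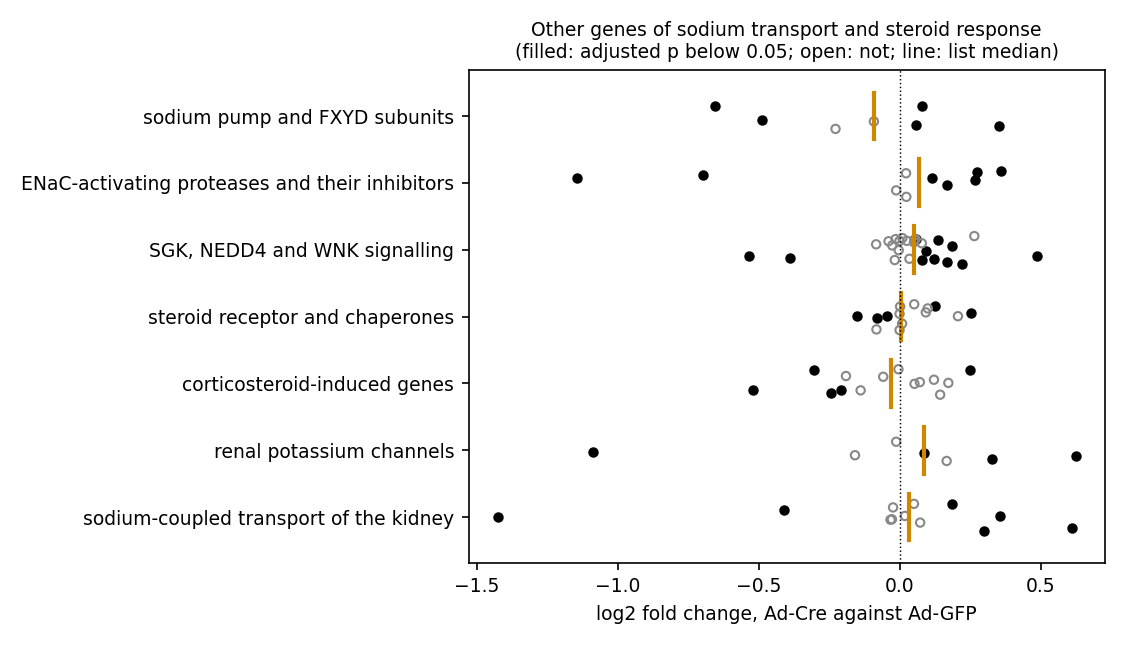
Log2 fold change in Ad-Cre against Ad-GFP (horizontal axis) of the tested genes of each of 7 lists, 1 point per gene. Filled points passed an adjusted p of 0.05, open points did not, and the line is the list's median. All 7 medians lie between -0.09 and 0.08.

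Of 14 pump and FXYD subunit genes 7 were tested, and 3 rose and 2 fell. The rises included Atp1b3 and Fxyd2, the γ subunit of the renal pump (127.7%), which was named after its value was seen and kept its call in 13 of 18 other settings. Fxyd5, which encodes a pump regulator also called dysadherin, fell to 71.25% of Ad-GFP. Among 26 tested genes of SGK, NEDD4 and WNK signalling 9 rose and 2 fell. The deubiquitinase gene Usp8 was at 116.5%, the ligase gene Itch, a relative of Nedd4l, at 110.0%, and the 14-3-3 gene Ywhaz at 106.8%. The call of Ywhaz was lost on the FPKM scale (limma on log2(FPKM + 0.1), adjusted p = 0.0892). The falls were Wnk4 (76.38%), a kinase that regulates the thiazide-sensitive cotransporter, and Usp2 (69.1%), which can remove ubiquitin from ENaC and was named after its value was seen. The call of Usp2 was lost without Ad-Cre replicate 2 (edgeR adjusted p = 0.05027).

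Of 14 tested receptor and chaperone genes 2 rose and 3 fell. H6pd, which supplies reducing power to the enzyme of Hsd11b1, was at 119.0% and the coactivator gene Ncoa2 at 109.2%, a call lost on the FPKM scale (limma on log2(FPKM + 1), adjusted p = 0.1198). The corepressor gene Nrip1 was at 89.92%, Hsp90ab1 at 96.97% and Ptges3, named after its value was seen, at 94.52%. The calls of Hsp90ab1 and Ptges3 each held in 13 of 18 other settings. Hsp90aa1 was at 99.96% (adjusted p = 0.9834 by edgeR). Of 14 tested corticosteroid-induced genes 4 fell and 1 rose, and the median of their log2 fold changes was -0.03. Edn1 (endothelin 1) was at 84.42%, Ddit4 at 86.54% and Cebpd at 81.07%. Fkbp5 at 69.75% and the rise of Mt1 to 118.9% were named after their values were seen. Errfi1 was at 105.1% (adjusted p = 0.05097). Tsc22d3 (GILZ), also named after its value was seen, was at 90.8% (adjusted p = 0.2793).

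Among 7 tested potassium channel genes 3 rose and 1 fell. Kcnj16, the basolateral partner of Kcnj10, rose from 69.79 to 107.7 CPM (154.1% of Ad-GFP; adjusted p = 2.042e-13 by edgeR), Kcnk5 rose to 125.3% and Kcnk1 to 106.0%, a call that held in only 4 of 18 other settings. Kcnj2 fell to 47.01% at under 1 CPM. Of 12 tested genes of sodium-coupled transport 4 rose and 2 fell. The thiazide-sensitive cotransporter gene Slc12a3 rose from 9.455 to 14.47 CPM (152.6%), Slc4a4 to 127.9%, Slc4a7 to 123.2% and Slc12a2 to 113.6%. Slc12a7 was at 105.1% (adjusted p = 0.07748). The falls, named after their values were seen, were the sodium-calcium exchanger gene Slc8a1 (75.21%) and Slc12a1 (37.22%, from 1.438 CPM).

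For the 5 called members of at least 5 CPM, which leaves out Kcnj1, the most similar genes were taken as those with the smallest root mean square distance in log2 CPM, centred on each gene's own mean over the 8 libraries, among 10691 other genes of at least 5 CPM. They were Nf2 (0.0207) and Lasp1 (0.0216) for Scnn1a, Ap2m1 (0.0142) and Bicd2 (0.0166) for Atp1b1, and Dstyk (0.0234) and Cdk13 (0.0254) for Nedd4l. Those of Sgk1 were Dhx8 (0.0283) and Tmem104 (0.0302), and those of Hsd11b2 were Rufy2 (0.0394) and Lrguk (0.0542). The distance takes in the shift between groups, so it favours genes of like fold change, such as 0.32 for both Nf2 and Lasp1. No member was among the nearest genes of another member. Of 10691 genes only the nearest 2 were kept, so this was likely beforehand. It does not tell whether the members vary together.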

How the data were processed

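The deposited counts are whole-number reads per gene, per the file headers. Beside them the authors gave FPKM values per library, group means of FPKM, a log2 fold change, and p-values with an FDR from a test not named. The submitters' processing notes name GRCm38 and mm10. Aligner, counter, strand setting and annotation were not given in the sources used here.

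Counts were fitted with edgeR 4.0.16 in R 4.3.3 (filterByExpr, TMM, quasi-likelihood test, two-sided, Benjamini-Hochberg adjustment over all genes tested, threshold 0.05). "Rose" and "fell" mean past that threshold. CPM uses TMM-scaled totals, and SE is the absolute log2 fold change over the square root of F. Ratios and levels relative to epithelial markers were tested over samples by exact permutation, two-sided. Positions and exon overlaps came from GENCODE M21 (GRCm38), promoter windows from RefSeq (GRCm38.p6). The edgeR fit was tested on simulated data.

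The members and lists were chosen with earlier results of these data known. Named genes are the 9 members, the partners in ratios, from each pathway list the 3 called genes of smallest p and the 2 of highest CPM, from each cell type list the 2 of highest CPM, and the nearest genes. Of the genes taken by this rule, some are not reported here, but counts include them. Alternatives were RLE and upper-quartile factors, no filter, at least 5 CPM, DESeq2 1.42.0, limma-voom (limma 3.58.1), the replicate block, each library left out, limma on log2(FPKM + 1) and log2(FPKM + 0.1) for a mean FPKM of at least 1, and thinning to 15879244 counts. Replicates of a group differed by more than sampling noise (chi-square per degree of freedom 1.82 to 3.33). Because the labels state no pairing, the replicate numbers were not used as pairs. A check was mixed, with correlations of same-numbered deviations from -0.012 to 0.104.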

Additional observations from a re-analysis of the deposited data

Results flagged for a closer look

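Of 52 sets of 4 values examined (CPM and FPKM of each gene and the ratios, in each group), 2 held a library far from the other 3, where chance alone flags about 1 in 20. The FPKM ratio of Atp1b1 to Atp1b3 in Ad-Cre replicate 4 was 2.039, against 2.156 to 2.169 in the other Ad-Cre libraries. The ratio of Nr3c2 to Nr3c1 in Ad-Cre replicate 2 was 0.032, against 0.054 to 0.059 in the others, and it rests on 56 counts of Nr3c2.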

How the results depend on the processing

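Scnn1a, Atp1b1 and Sgk1 kept their direction and their call in all 18 alternatives. The log2 fold change of Scnn1a ran from 0.29 to 0.33, that of Atp1b1 from -0.15 to -0.12 and that of Sgk1 from -0.19 to -0.13. The number of the 9 genes called ran from 4 (DESeq2 and limma on log2(FPKM + 0.1)) to 7 (without Ad-GFP replicate 2), against 6. Scnn1b turned to -0.02 without Ad-GFP replicate 1 (adjusted p = 0.9001) and was called in none. Ctsb and Hsp90aa1, neither of them called, lay at 0 within their error: with 1 library left out Ctsb ran from -0.00469 to 0.04 and Hsp90aa1 from -0.01 to 0.01, and Hsp90aa1 also turned to 0.01 with no filter and to 0.00154 with DESeq2. Over all genes, limma on FPKM called 3530 with a pseudocount of 1 and 3520 with 0.1, against 5370. That alternative differs in unit, test and filter, and the cause was not tested. Taking ratios from CPM in place of FPKM moved the number of ratios called from 0 to 5 of 8, each at an adjusted p = 0.0457 by the exact permutation test. Of these, 4 were at 0.0571 on FPKM, and Nedd4l to Nedd4, whose groups overlapped on FPKM, was at 0.114. Those 4 were at the smallest unadjusted p allowed, 0.0286, on both scales. The move from 0 to 5 therefore turned on Nedd4l to Nedd4 and does not show stronger differences in the other 4. Against only Krt8, Krt18, Cdh1 and Epcam, 6 of 9 genes were called after adjustment over these 9 comparisons, against 0 with the 18 markers. With the 18 markers 4 genes were already at the smallest unadjusted p the exact permutation test allows, 0.0286. Their passing against the 4 markers alone therefore turned on more genes reaching that p. In that setting Atp1b1 (0.08), Sgk1 (0.06) and Nr3c2 (0.00299) changed sign, so no direction relative to epithelial markers holds for these 3 genes. The replicate block gave 5390 genes called, 6 members and 47 pathway genes, against 5370, 6 and 43. The correlation of same-numbered deviations was 0.083, 0.104, 0.008 and -0.012 for replicates 1 to 4, and the highest with another number was 0.005, 0.033, 0.066 and 0.067, so replicates 1 and 2 correlated best with their own number and 3 and 4 did not. Permuted within replicate number, the exact test cannot go below 0.125, and with a sample left out no exact p was computed. These settings were therefore read for direction only. Low counts limit Kcnj1 and Nr3c2, and arms of 3 libraries share the spread of the other group.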

Other observations

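All 9 genes carry the KEGG term for aldosterone-regulated sodium reabsorption in the deposited table, which 40 genes carry in all. The term was looked up after the values were known. Of its 23 other tested genes 9 rose and 5 fell, and the median of the log2 fold changes was 0.03, beside a background of 19.8% higher and 20.5% lower. Outside the lists above, the insulin receptor gene Insr rose to 131.6% of Ad-GFP (adjusted p = 2.392e-10 by edgeR) and the kinase gene Prkca to 120.0%, a call that held in 16 of 18 other settings. Igf1 fell to 66.65%, the adaptor gene Irs1 to 81.04% and the leukocyte kinase gene Pik3cd to 64.35%. Of the macrophage and leukocyte markers, 5 of 8 fell, 0 rose and 3 were not called. Their summed level was 222 to 249 CPM in Ad-GFP and 204 to 213 CPM in Ad-Cre, and their part in the fall of Pik3cd was not tested.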
